A study of Homo sapiens with 9 samples.

Results

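A set of 49 genes whose transcripts accumulate in G2 and mitosis was followed through single-cell RNA libraries of U2OS cells, a human osteosarcoma line. The 49 symbols were taken as a fixed list of kinases, cyclins, kinetochore, spindle, cytokinesis, ubiquitin ligase and chromosome genes, and each was found exactly once among the 36601 genes of the deposited matrices. All 49 also passed the filter on low counts, which left 18069 genes. Every cell carried RPB1, the largest subunit of RNA polymerase II (POLR2A), with a fluorescent or ligand-binding tag at its amino terminus and a C-terminal domain (CTD) of set length. The tag was HaloTag or Dendra2. The CTD, a tail of repeated heptapeptides, had 25 repeats (25R), 70 repeats (70R) or the wild-type 52 repeats (52R). All groups were kept in α-amanitin, which blocks the cells' own polymerase, at 1 µg/ml for 6 days. The groups were HaloTag 25R, HaloTag 52R, HaloTag 70R, Dendra2 25R, Dendra2 52R and Dendra2 70R, with 1 library each. The 9 labelled samples are these 6 libraries, as HaloTag libraries were each run on the sequencer 2 times. Cells with no tag, or grown without the drug, were not analysed here.

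The tag and the sequencing date cannot be told apart: the HaloTag libraries were sequenced in other runs and months than the Dendra2 libraries. No separate cultures are described, so p-values over libraries measure the spread between these 6 libraries only, with the interaction of tag and CTD length as the error (2 residual degrees of freedom). Kept cells numbered 3483, 3705 and 4677 in the HaloTag 25R, 52R and 70R libraries, against 3121, 2747 and 2718 in the Dendra2 25R, 52R and 70R libraries. Wherever 3 values are given for a tag, they stand in this order of CTD length. Median UMIs (unique molecular identifiers, 1 per counted molecule) per cell were 16020, 13567 and 10812 in HaloTag cells and 15770, 18256 and 18739 in Dendra2 cells, and HaloTag libraries held between 53863648 and 58442223 UMIs and Dendra2 libraries between 52553686 and 53635648. Pairs of libraries shared between 0 and 7 cell barcodes. The labels call the cells epithelial. Of 8 epithelial markers 3 (ESRP1, CDH1 and KRT19) were under 1 CPM (counts scaled to a common library total) in every library, and the summed level of the 8 ran from 1047 to 1583 CPM in HaloTag libraries and from 855.1 to 1573 CPM in Dendra2 libraries. The 8 mesenchymal and osteoblast markers summed to 3036 to 4163 CPM in HaloTag libraries and 2994 to 3470 CPM in Dendra2 libraries, and COL1A2 among them was under 1 CPM throughout. Leukocyte markers (6 genes, sum at most 2.71 CPM in HaloTag libraries and 0.455 CPM in Dendra2 libraries) and endothelial markers (3 genes, at most 0.342 and 0.285 CPM) were near 0.

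Entry into mitosis is driven by cyclin-dependent kinase 1 (CDK1) bound to B-type cyclins, and Polo-like and Aurora kinases then act on centrosomes, centromeres and the spindle. Transcripts of these genes are low in G1 and build up through S phase and G2. Their promoters are held down in resting and early G1 cells by the DREAM complex and switched on later by B-MYB and FOXM1, through an element called the cell cycle genes homology region (CHR) and nearby CCAAT boxes bound by NF-Y. At the end of mitosis the anaphase-promoting complex, with CDC20 as an activator, marks cyclin B and securin for destruction.

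The promoters of 6 members are shown because they carry, or lack, those elements: both CKS genes, both B-type cyclins, PLK1, and TMPO, the member with the smallest unadjusted p between tags. Each is the 250 bases before the RefSeq start on GRCh38.p14, 5′ to 3′ on the plus strand, and capitals mark CHR (TTTGAA or TTCGAA) and CCAAT on either strand. They lie at chr1:154974431-154974680 (CKS1B), chr9:89310945-89311194 (CKS2), chr5:69166900-69167149 (CCNB1), chr15:59104896-59105145 (CCNB2), chr16:23678639-23678888 (PLK1) and chr12:98515323-98515572 (TMPO).
CKS1B: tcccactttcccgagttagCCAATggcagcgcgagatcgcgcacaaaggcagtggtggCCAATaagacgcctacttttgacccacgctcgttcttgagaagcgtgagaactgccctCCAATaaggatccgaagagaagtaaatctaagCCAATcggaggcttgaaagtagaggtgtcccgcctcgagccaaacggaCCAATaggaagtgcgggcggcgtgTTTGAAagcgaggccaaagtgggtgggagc
CKS2: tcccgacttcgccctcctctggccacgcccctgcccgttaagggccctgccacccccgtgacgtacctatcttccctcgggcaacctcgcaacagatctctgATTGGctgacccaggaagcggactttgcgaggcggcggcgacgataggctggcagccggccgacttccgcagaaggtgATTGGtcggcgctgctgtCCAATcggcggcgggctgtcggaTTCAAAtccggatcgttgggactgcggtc
CCNB1: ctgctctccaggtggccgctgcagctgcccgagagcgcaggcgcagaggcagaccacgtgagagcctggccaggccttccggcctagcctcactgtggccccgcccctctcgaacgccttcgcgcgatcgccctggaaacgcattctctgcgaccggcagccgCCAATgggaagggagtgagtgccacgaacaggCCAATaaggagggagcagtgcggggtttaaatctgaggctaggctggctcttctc
CCNB2: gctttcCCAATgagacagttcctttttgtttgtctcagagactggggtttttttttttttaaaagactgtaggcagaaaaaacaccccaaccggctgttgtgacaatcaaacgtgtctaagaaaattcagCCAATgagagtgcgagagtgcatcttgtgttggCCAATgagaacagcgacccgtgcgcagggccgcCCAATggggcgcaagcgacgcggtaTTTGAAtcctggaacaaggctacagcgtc
PLK1: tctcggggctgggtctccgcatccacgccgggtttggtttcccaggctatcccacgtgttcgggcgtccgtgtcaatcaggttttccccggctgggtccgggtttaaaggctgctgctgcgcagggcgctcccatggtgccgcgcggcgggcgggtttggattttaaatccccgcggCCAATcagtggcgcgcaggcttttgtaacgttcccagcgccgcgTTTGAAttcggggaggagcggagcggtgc
TMPO: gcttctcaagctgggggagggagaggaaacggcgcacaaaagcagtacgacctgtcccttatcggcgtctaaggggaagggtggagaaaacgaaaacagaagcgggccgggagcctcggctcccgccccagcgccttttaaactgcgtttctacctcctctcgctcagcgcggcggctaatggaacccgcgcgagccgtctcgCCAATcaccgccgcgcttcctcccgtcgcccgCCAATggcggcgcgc
The first base of the CHR lay 30 bases before the start in CKS1B and 29 bases before it in CKS2, CCNB2 and PLK1, and the nearest CCAAT 54, 52, 54 and 73 bases before it in those 4 promoters. CCNB1 held CCAAT at 55 and 87 bases and TMPO at 15 and 47 bases before the start, and neither held those CHR letters in this window.

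RefSeq listed a promoter for 41 of the 49 members, counted over 300 bases (250 before and 50 after the start), and the first start was used for the 6 members with several. CHR letters (TTTGAA or TTCGAA) were found in 31 of the 41 (75.6%), against 16.4% of all 35116 promoters of that length. CCAAT was found in 30 (73.2%), against 34.6% of all promoters. Both occurred in 26 members (63.4%), against 6.38% of all promoters. TTCCCGC, the core that E2F factors bind, was found in 4 members (9.76%), against 6.55%. Both strands were searched for every motif, and a promoter was counted whether or not its matches shared bases with another motif. AURKA, BIRC5, CDCA2, HMGB2, PBK, TPX2, TTK and UBE2C had no entry.

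The members were higher in single cells that were rich in other mitosis transcripts. A separate list of 68 other mitosis genes, none of them a member, was used to grade the cells: after each cell was thinned to 5000 UMIs, cells with at least 35 UMIs of that list, the 80th percentile over libraries, were called mitosis-high. Between 2.53% and 4.55% of a library's cells lay within 1 UMI of that limit, so the class is a range and not a cell type. Every one of the 49 members had a higher mean UMI count in mitosis-high cells than in other cells, by ratios from 1.69 to 6.64 (means of 6 libraries, a description). The steepest were NEK2, a centrosomal kinase (6.64), PLK1, Polo-like kinase 1 (5.61), AURKA, the centrosomal Aurora kinase (4.90) and CENPE, a kinetochore motor (4.88). The flattest were TMPO, which encodes lamina-associated polypeptides (1.69), CKS1B, a small CDK-binding subunit (1.94), BIRC5, or survivin (2.19), NCAPD2, a condensin subunit (2.21) and HMGB2, a chromatin protein (2.24).

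Members also varied together from cell to cell. Over the 1176 pairs of members, the correlation of thinned counts across cells, averaged over the 6 libraries, ranged from 0.0598 to 0.564 with a median of 0.212, and no pair was negative. The closest pairs were CENPF, a kinetochore protein, with TOP2A, the type II topoisomerase that untangles chromosomes (0.564), and CENPF with TPX2, the spindle activator of Aurora A (0.558). CCNB1, cyclin B1, ran closest to CENPF (0.483), CKS2 (0.473) and CDC20 (0.468). Cells of a library share its depth and its free RNA, and these values are descriptions without a test. Pairs of other genes were not set beside them.

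The tags did not overlap in the share of cells nearly without these transcripts. In HaloTag libraries 25.8%, 30.5% and 31.0% of cells held at most 5 UMIs of the 49 members among 5000, against 8.54%, 10.2% and 12.0% in Dendra2 libraries. Exact (Clopper-Pearson) 95% binomial intervals, which cover counting error only, ran from 24.4% to 27.3%, 29.0% to 32.0% and 29.6% to 32.3% in HaloTag cells. In Dendra2 cells they ran from 7.57% to 9.60%, 9.06% to 11.4% and 10.8% to 13.3%. The lowest HaloTag library stood above the highest Dendra2 library. The mean share of such member-poor cells was 29.1 ± 2.86% in HaloTag and 10.2 ± 1.72% in Dendra2 (SD, n = 3 each), a difference of 18.9 percentage points. The two-sided exact permutation p was 0.1, the smallest that 3 libraries against 3 allow, and 0.1 after adjustment over the 4 measures of this kind.

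**Figure D1:**
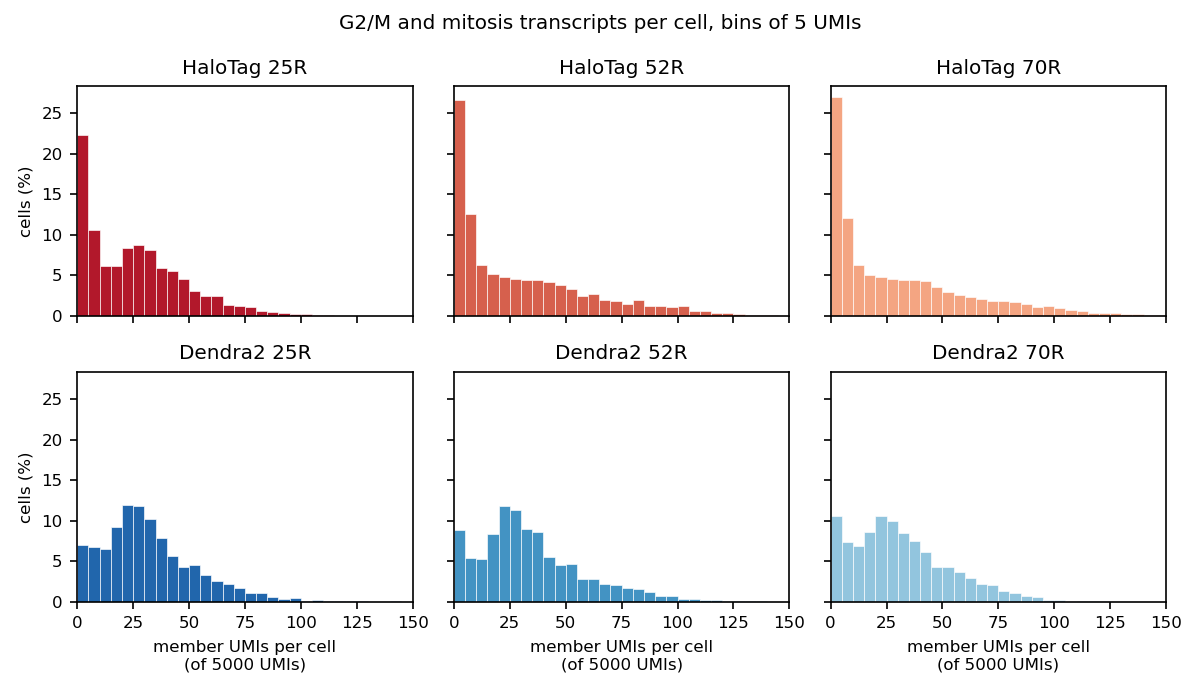
Histograms of the summed UMIs of the 49 members per cell (x axis, of 5000 UMIs per cell, bins of 5 UMIs) against the percentage of cells (y axis), with HaloTag libraries in the upper row, Dendra2 libraries in the lower row and CTD lengths 25R, 52R and 70R in columns. The HaloTag panels have a tall first bin at the left, 22.4% of cells in HaloTag 25R, and longer right tails at 52R and 70R. The Dendra2 panels have a main hump, with medians of 27 to 29 UMIs. Their first bin is smaller than in HaloTag, at 7.02%, 8.85% and 10.6% of cells. In Dendra2 70R it is as tall as the highest bin of the hump.

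The upper part of the distribution differed less. The 25th percentile of member UMIs per cell was 5, 4 and 4 in HaloTag libraries and 17, 18 and 15 in Dendra2 libraries. The median was 23, 19 and 19 in HaloTag libraries and 28, 29 and 27 in Dendra2 libraries. At the 95th percentile the values were 68, 94 and 97 in HaloTag libraries and 72, 80 and 74 in Dendra2 libraries, so HaloTag 52R and 70R reached higher than every Dendra2 library and HaloTag 25R did not. The coefficient of variation (SD over mean) of the member sum was 0.981 ± 0.108 in HaloTag and 0.687 ± 0.0220 in Dendra2 (SD, n = 3 each, exact permutation p = 0.1). Without the member-poor cells it was 0.594, 0.719 and 0.728 in HaloTag libraries and 0.580, 0.589 and 0.588 in Dendra2 libraries.

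Member-poor cells were low in the other proliferation genes as well. They averaged 4.61, 4.34 and 4.91 thinned UMIs of the 68 other mitosis genes in HaloTag libraries and 5.57, 5.07 and 4.93 in Dendra2 libraries. The remaining cells averaged 24.5, 29.4 and 30.5 UMIs of them in HaloTag libraries and 26.5, 29.3 and 28.6 in Dendra2 libraries. The 43 S phase genes (replication and nucleotide synthesis) followed the same order. They averaged 4.82, 5.54 and 4.83 UMIs in member-poor cells of HaloTag libraries and 5.84, 6.01 and 4.71 in those of Dendra2 libraries. In the remaining cells they averaged 16.3, 19.7 and 17.9 UMIs in HaloTag libraries and 17.5, 19.6 and 17.9 in Dendra2 libraries. CDKN1A, which encodes the CDK inhibitor p21, was the gene of the opposite kind. It averaged 1.29, 0.754 and 0.763 UMIs in member-poor cells of HaloTag libraries and 1.30, 1.11 and 1.19 in those of Dendra2 libraries. The remaining cells held 0.911, 0.359 and 0.460 UMIs in HaloTag libraries and 0.521, 0.348 and 0.480 in Dendra2 libraries. In each of the 6 libraries member-poor cells thus had less of both proliferation lists and more CDKN1A.

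Mitochondrial content, like the share of member-poor cells, was higher in every HaloTag library than in any Dendra2 library. Median mitochondrial content of all cells was 6.85%, 8.86% and 9.08% in HaloTag libraries and 5.99%, 6.13% and 5.41% in Dendra2 libraries. Within libraries member-poor cells had fewer total UMIs than the rest, with medians of 13331, 11072 and 8831 against 17163, 14935 and 12218 in HaloTag libraries, and of 12149, 13905 and 13615 against 16511, 18952 and 19669 in Dendra2 libraries. Their mitochondrial content was a little higher, at 7.17%, 9.42% and 9.90% against 6.76%, 8.70% and 8.60% in HaloTag libraries, and 6.31%, 6.91% and 6.72% against 5.94%, 6.06% and 5.26% in Dendra2 libraries. At 25R, where median depth was 16020 UMIs in HaloTag and 15770 in Dendra2, the member-poor share was 25.8% in HaloTag and 8.54% in Dendra2. Within Dendra2 the order was another: 70R had the largest member-poor share (12.0%) with the lowest mitochondrial content and the deepest cells (median 18739 UMIs). The part of mitochondrial content and of depth in the result was not tested. The few cells without a single UMI of the 68 other mitosis genes, at most 0.988% of a library, averaged 1.95, 1.56 and 2.35 member UMIs in HaloTag libraries and 3.5, 2.8 and 3 in Dendra2 libraries.

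At the other end, mitosis-high cells made up 11.9%, 22.0% and 23.7% of HaloTag libraries and 17.5%, 24.5% and 24.6% of Dendra2 libraries. The means were 19.2 ± 6.37% and 22.2 ± 4.08% (SD, n = 3 each) and did not differ beyond the spread (exact permutation p = 0.5, 0.6 adjusted over 3 measures). In both tags the 25R library had the smallest share. A mitosis-high cell held 62.7, 75.3 and 75.8 member UMIs in HaloTag libraries and 61.1, 62.2 and 57.6 in Dendra2 libraries. The means were 71.3 ± 7.42 in HaloTag and 60.3 ± 2.43 in Dendra2 (n = 3 each, exact permutation p = 0.1, adjusted 0.3). Other cells held 20.3, 16.9 and 16.3 member UMIs in HaloTag libraries and 25.4, 24.3 and 22.5 in Dendra2 libraries (17.8 ± 2.16 and 24.0 ± 1.44, exact permutation p = 0.1). The ratio of mitosis-high to other cells was 3.09, 4.46 and 4.64 in HaloTag libraries and 2.41, 2.56 and 2.56 in Dendra2 libraries, again without overlap (exact permutation p = 0.1). Summed over all cells, the 49 members took 6476 ± 779 CPM in HaloTag libraries and 6928 ± 257 CPM in Dendra2 libraries (n = 3 each, exact permutation p = 0.6).

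**Figure D2:**
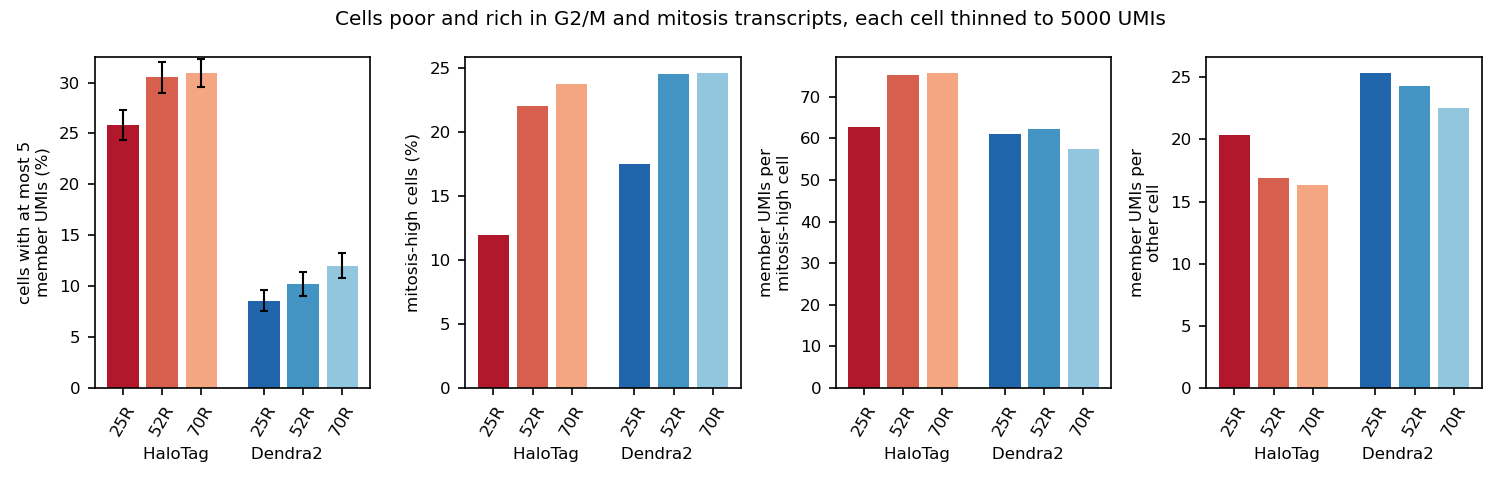
Bars give 1 library each, the 3 HaloTag libraries at the left and the 3 Dendra2 libraries at the right of each panel, for the percentage of cells with at most 5 member UMIs (with exact 95% binomial intervals), the percentage of mitosis-high cells, the member UMIs per mitosis-high cell and the member UMIs per other cell, after thinning to 5000 UMIs per cell. The member-poor bars of HaloTag (25.8% to 31.0%) all exceed those of Dendra2 (8.54% to 12.0%), whereas the mitosis-high bars overlap.

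In counts summed per library, no member passed the threshold between tags. Of 49 members 0 had an edgeR quasi-likelihood adjusted p under 0.05, against 0.26% of the 18069 genes tested (47 genes). At an unadjusted p under 0.05, 10 members were lower in HaloTag, against 9.13% of all genes, and 0 were higher. The fitted log2 difference was below 0 for 39 members and above 0 for 10, with a median of −0.15, beside 0.03 over all genes tested. By CTD length the median member difference between the tags' libraries was −0.34 at 25R, −0.13 at 52R and 0.03 at 70R, so it was not of the same sign throughout. DESeq2 called 4 members lower and 0 higher, where it called 3.17% of all genes lower: TMPO (log2 −0.64, adjusted p = 0.00154), BIRC5 (−0.68, 0.00259), SPC25 (−0.71, 0.0131) and CKS1B (−0.50, 0.0200). Without the filter on low counts edgeR called TMPO (−0.66) and BIRC5 (−0.70), each at an adjusted p of 0.049, where it called 0.501% of genes lower.

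**Figure D3:**
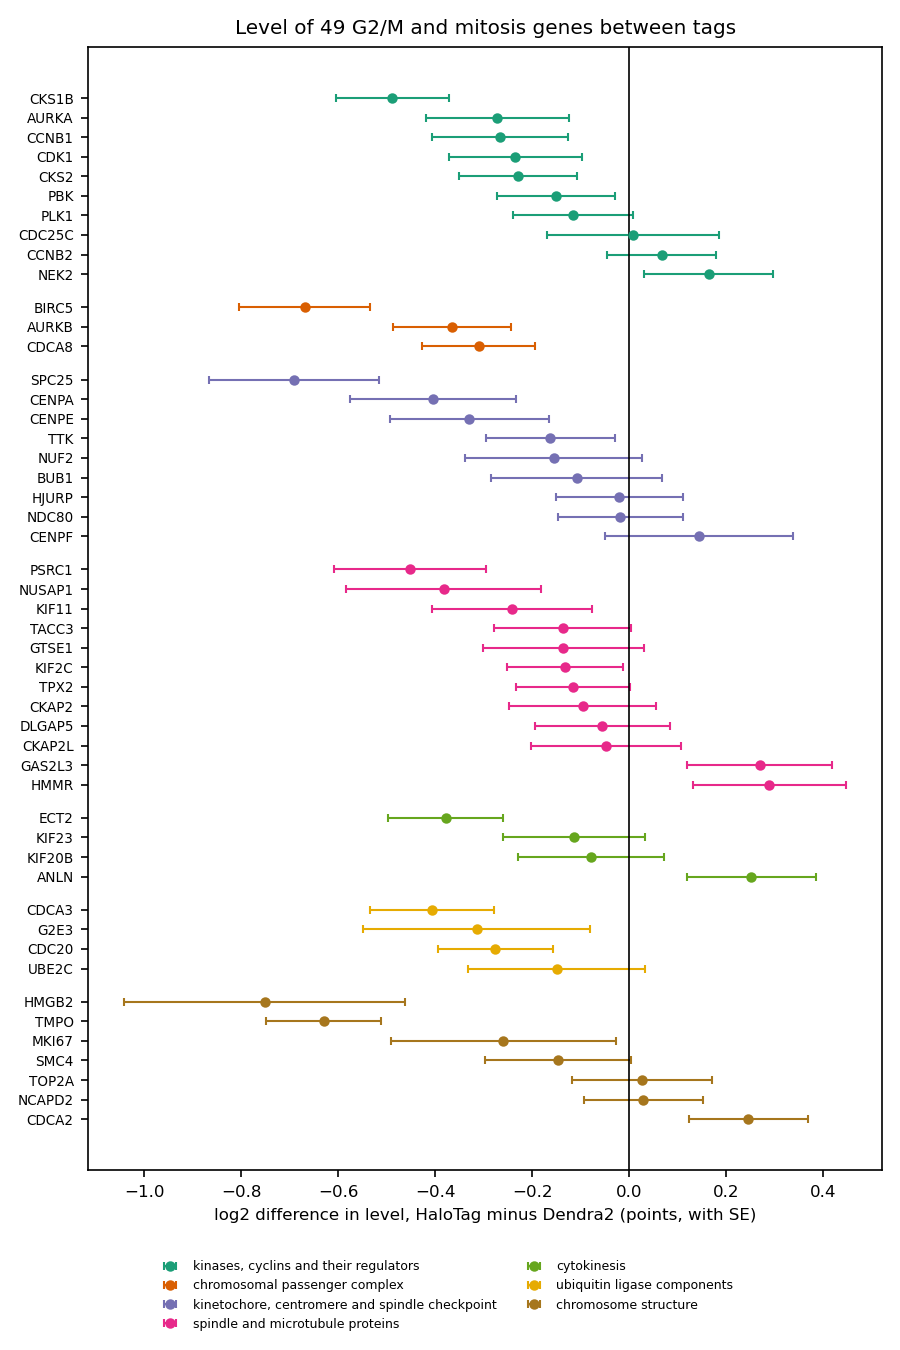
Fitted log2 difference in level, HaloTag minus Dendra2 (x axis, points with SE from edgeR), for each of the 49 members (y axis), coloured and grouped by role. Most points lie left of 0, and the lowest are HMGB2 (−0.75), SPC25 (−0.69), BIRC5 (−0.67) and TMPO (−0.63).

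Among the 10 kinases, cyclins and their regulators, 7 differences were below 0, with a median of −0.19. CDK1 stood at 140.8, 196.6 and 240.8 CPM in HaloTag libraries and 201.2, 216.6 and 249.6 CPM in Dendra2 libraries, and CCNB1 at 240.8, 264.1 and 301.4 CPM in HaloTag libraries and 346.2, 319.7 and 301.9 CPM in Dendra2 libraries. The gap of both was widest at 25R and under 10 CPM at 70R. CKS1B, which assists the kinase and the SCF ubiquitin ligase (chr1:154974653-154979251, GENCODE v44), had 199.4, 188.1 and 249.0 CPM in HaloTag libraries, against 259.7, 279.0 and 356.0 CPM in Dendra2 libraries. Every HaloTag library lay below every Dendra2 library (log2 −0.49, SE 0.12, edgeR adjusted p = 0.131). Its paralogue CKS2 overlapped between tags, with 373.0, 335.3 and 433.1 CPM in HaloTag libraries and 465.1, 417.8 and 449.4 CPM in Dendra2 libraries (log2 −0.23, SE 0.12). CKS1B has 7 named pseudogenes in the annotation, so its reads could be shared with near copies. PLK1 was nearly level, at 39.28, 41.64 and 48.02 CPM in HaloTag libraries and 46.45, 44.48 and 48.41 CPM in Dendra2 libraries. AURKA had 117.3, 107.7 and 96.09 CPM in HaloTag libraries and 136.3, 162.0 and 96.92 CPM in Dendra2 libraries. NEK2 had the highest difference of the group (log2 0.16, SE 0.13).

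All 3 members of the chromosomal passenger complex, which corrects kinetochore attachments, were lower in each HaloTag library than in any Dendra2 library. BIRC5 (chr17:78214186-78225636) had 220.8, 216.4 and 155.8 CPM in HaloTag libraries and 313.8, 321.6 and 297.1 CPM in Dendra2 libraries (log2 −0.67, SE 0.13, edgeR adjusted p = 0.114). AURKB, its kinase subunit, had 33.67, 31.81 and 27.80 CPM in HaloTag libraries and 43.82, 40.04 and 36.30 CPM in Dendra2 libraries (log2 −0.37, SE 0.12, edgeR adjusted p = 0.194). CDCA8, or borealin (chr1:37692481-37709719), was even within a tag, at 51.68, 52.69 and 52.53 CPM in HaloTag libraries and 63.98, 66.06 and 64.58 CPM in Dendra2 libraries (log2 −0.31, SE 0.12). Libraries did not overlap, HaloTag lower, for 11 members in all (CDCA8, CDC20, PSRC1, CKS1B, SPC25, ECT2, CCNB1, CDCA3, TMPO, AURKB and BIRC5), against 11.6% of all genes tested. HaloTag was higher without overlap for ANLN, CDCA2 and GAS2L3, against 12.7% of all genes.

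Of the 9 kinetochore, centromere and spindle checkpoint genes 8 were below 0 (median −0.16). SPC25, a subunit of the NDC80 complex that grips microtubules (chr2:168834132-168913371), had 74.97, 117.7 and 73.70 CPM in HaloTag libraries and 160.2, 143.0 and 119.4 CPM in Dendra2 libraries (log2 −0.69, SE 0.18, edgeR adjusted p = 0.141). NDC80 itself did not share that gap, at 99.03, 117.9 and 117.6 CPM in HaloTag libraries and 113.1, 122.3 and 103.2 CPM in Dendra2 libraries. CENPA, the centromeric histone H3, had 57.81, 73.54 and 74.84 CPM in HaloTag libraries and 94.61, 106.6 and 73.12 CPM in Dendra2 libraries. CENPF was the member above 0 (log2 0.14, SE 0.19): HaloTag libraries held 400.8, 571.1 and 677.1 CPM and Dendra2 libraries 515.4, 498.7 and 447.7 CPM. Its level was lower in HaloTag at 25R and higher at 52R and 70R.

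The 12 spindle and microtubule proteins had a median of −0.12, with 10 below 0. TPX2 was within a narrow band, at 277.9, 318.1 and 286.8 CPM in HaloTag libraries and 321.3, 314.5 and 318.8 CPM in Dendra2 libraries. KIF11, the kinesin that pushes spindle poles apart, had 54.60, 92.14 and 81.40 CPM in HaloTag libraries and 86.12, 99.15 and 79.61 CPM in Dendra2 libraries. PSRC1, a microtubule-associated protein, had the lowest difference of the group (log2 −0.45, SE 0.16). HMMR, the hyaluronan-mediated motility receptor of the spindle, had the highest (log2 0.29, SE 0.16), with 121.5, 78.87 and 92.77 CPM in HaloTag libraries and 76.03, 73.85 and 86.71 CPM in Dendra2 libraries. The 121.5 CPM of HaloTag 25R stood above all others.

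The 4 cytokinesis genes had a median of −0.10 and lay on both sides of 0. ANLN, or anillin, the scaffold of the contractile ring, had 133.9, 126.2 and 120.5 CPM in HaloTag libraries and 113.5, 90.83 and 116.9 CPM in Dendra2 libraries (log2 0.25, SE 0.13). ECT2, which activates RhoA at the midzone, lay on the other side of 0 (log2 −0.38, SE 0.12, edgeR adjusted p = 0.179). The 4 ubiquitin ligase components were all below 0 (median −0.30). UBE2C, the ubiquitin-conjugating enzyme of the anaphase-promoting complex, overlapped between tags, at 217.2, 227.8 and 288.7 CPM in HaloTag libraries and 285.6, 302.9 and 224.9 CPM in Dendra2 libraries. CDC20 had 132.3, 143.1 and 160.9 CPM in HaloTag libraries and 176.4, 166.5 and 184.2 CPM in Dendra2 libraries, with no overlap (log2 −0.28, SE 0.12). CDCA3 had the lowest difference of this group (log2 −0.41, SE 0.13).

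Of the 7 chromosome structure genes 4 were below 0 (median −0.15), among them HMGB2, the lowest member of the list. HMGB2 (chr4:173331376-173334432) had 104.1, 247.9 and 326.1 CPM in HaloTag libraries and 308.7, 406.7 and 321.1 CPM in Dendra2 libraries (log2 −0.75, SE 0.29, edgeR adjusted p = 0.233). Its 70R values were nearly equal, and the fitted difference ran between −1.15 and −0.37 when each library was left out in turn. TMPO (chr12:98515579-98550351) had 83.35, 101.3 and 92.26 CPM in HaloTag libraries and 140.1, 155.1 and 132.9 CPM in Dendra2 libraries, clear of overlap at every CTD length (log2 −0.63, SE 0.12, edgeR adjusted p = 0.108). TOP2A did not differ beyond its error, at 325.9, 443.1 and 428.9 CPM in HaloTag libraries and 398.4, 401.6 and 366.6 CPM in Dendra2 libraries (log2 0.03, SE 0.14). MKI67, which encodes the proliferation marker Ki-67, had 136.7, 183.7 and 172.0 CPM in HaloTag libraries and 267.9, 173.5 and 160.5 CPM in Dendra2 libraries, where the Dendra2 25R value stood apart. CDCA2, or Repo-Man, which recruits a phosphatase to anaphase chromosomes, was the highest of the group (log2 0.25, SE 0.12).

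**Figure D4:**
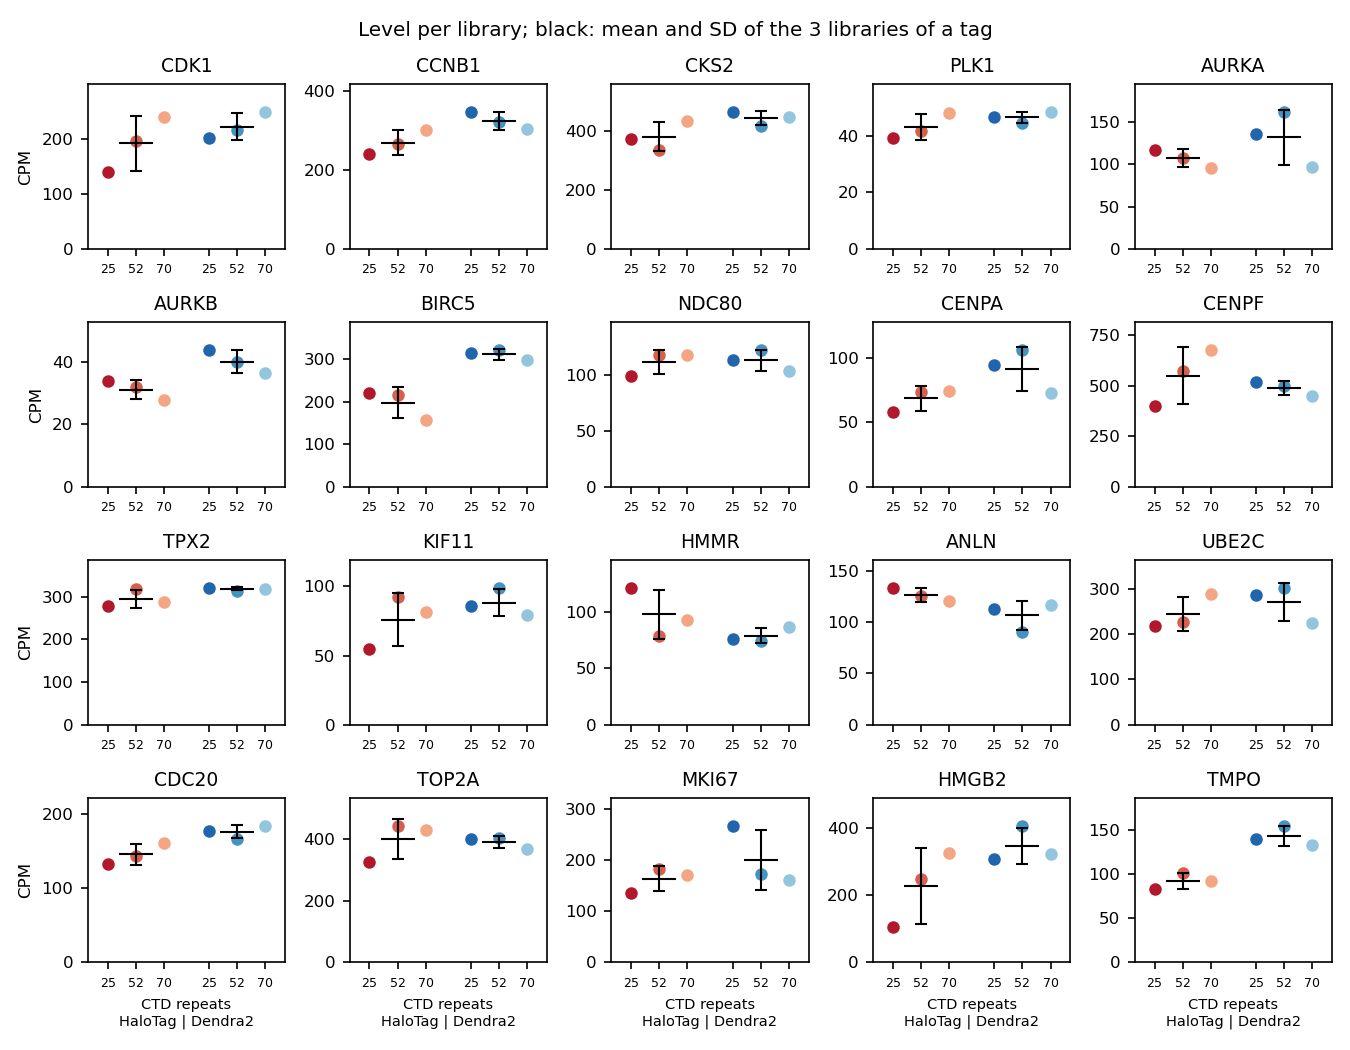
Level in CPM (y axis, from 0) of 20 members in each of the 6 libraries (x axis, CTD repeats, HaloTag at the left and Dendra2 at the right of each panel), with the mean and SD of the 3 libraries of a tag in black. BIRC5, TMPO, AURKB, CCNB1 and CDC20 show no overlap between tags, whereas CDK1, TOP2A, CENPF and UBE2C overlap.

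The members lowest in HaloTag tended to be those least confined to mitosis-high cells. Across the 49 members the fitted log2 difference between tags and the log2 ratio of mitosis-high to other cells had a Pearson r of 0.462 and a Spearman rho of 0.326, a description over genes measured in the same cells. The difference and the ratio come from the same counts and are not independent. Mean member UMIs were lower in HaloTag than in Dendra2 in other cells (17.8 against 24.0) and higher in mitosis-high cells (71.3 against 60.3). The 10 members with the lowest ratio (TMPO, CKS1B, BIRC5, NCAPD2, HMGB2, SMC4, SPC25, PBK, CDK1 and CCNB2) had a median log2 difference of −0.36, and the other 39 of −0.14. NCAPD2 (0.03) and CCNB2 (0.07) were exceptions among the 10. Among the 41 members with a promoter listed, CHR letters were in 75.6%, in 8 of the 10 with the lowest ratio and in 6 of the 10 with the highest. BIRC5, HMGB2 and PBK have no promoter listed, so those lowest 10 are not the 10 named above.

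Most genes of the lists around it also had differences in level below 0, without any call. Of the 6 lists all but the regulators of Cdk1 activity had medians farther from 0 than the −0.15 of the members. Of the 68 other mitosis genes 57 were below 0 between tags (median −0.27) and 24 had an unadjusted p under 0.05 on the lower side, against 9.13% of all genes. Of 43 S phase genes 32 were below 0 (median −0.28), 17 of them at an unadjusted p under 0.05. Differences between the lists were not tested. The 9 other G2/M genes had a median of −0.25 and the 19 transcription regulators of G2/M, such as DREAM subunits, of −0.27, with 7 and 15 members below 0. The median of the 15 subunits of the anaphase-promoting complex was −0.17 (11 below 0), between those of these lists and that of the members. The 15 regulators of Cdk1 activity had a median nearer 0 than the members (−0.11, 10 below 0). In each of these lists 0 genes were called by edgeR.

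CTD length made no member pass the threshold either. Between 25R and 52R 0 members were called, against 0.0443% of all genes, and 2 members, both lower, had an unadjusted p under 0.05, against 12.7% of all genes. The median log2 difference was −0.08, with 36 members below 0. It was −0.18 between the HaloTag libraries and −0.04 between the Dendra2 libraries. NUSAP1, which bundles spindle microtubules, had 130.1 CPM at 25R and 234.3 CPM at 52R in HaloTag cells, and 220.6 CPM at 25R and 349.3 CPM at 52R in Dendra2 cells (log2 −0.75, SE 0.25, edgeR adjusted p = 0.32). The other of the 2 was DLGAP5, a spindle microtubule protein (log2 −0.55, SE 0.17, edgeR adjusted p = 0.304). HMGB2 had the same order in each tag, with a larger gap in HaloTag (log2 −0.77, SE 0.35, edgeR adjusted p = 0.423). CDC25C (−0.30), CENPE (−0.29), G2E3 (−0.35) and KIF20B (−0.20) had the lowest log2 values of their role groups, HMMR (0.34), ANLN (0.20), CKS2 (0.15) and MKI67 (0.13) the highest of theirs.

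Between 70R and 52R 0 members were called, against 0.0% of all genes, and 2 had an unadjusted p under 0.05, against 4.63%. These were CKS1B on the higher side (log2 0.38, SE 0.14) and AURKA on the lower side (log2 −0.46, SE 0.18), each with an edgeR adjusted p of 0.961. AURKA had 96.09 CPM at 70R and 107.7 CPM at 52R in HaloTag cells, and 96.92 CPM at 70R and 162.0 CPM at 52R in Dendra2 cells. The member median was −0.07, and it was −0.01 between the HaloTag libraries and −0.10 between the Dendra2 libraries. SPC25 (−0.48), NUSAP1 (−0.43) and BIRC5 (−0.29) were the lowest of their role groups, GAS2L3 (0.27), NUF2 (0.21) and CDC20 (0.16) the highest of theirs.

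Between 70R and 25R 0 members were called, against 0.0% of all genes, and 2, both higher, had an unadjusted p under 0.05, against 12.3%. CDK1 had 240.8 CPM at 70R and 140.8 CPM at 25R in HaloTag cells, and 249.6 CPM at 70R and 201.2 CPM at 25R in Dendra2 cells (log2 0.54, SE 0.17, edgeR adjusted p = 0.328). CKS1B, the other member, had 249.0 CPM at 70R and 199.4 CPM at 25R in HaloTag cells, and 356.0 CPM at 70R and 259.7 CPM at 25R in Dendra2 cells. HMGB2 had the highest log2 difference (0.85, SE 0.36, edgeR adjusted p = 0.412), and AURKA (−0.38), BIRC5 (−0.29), KIF2C (−0.24), SPC25 (−0.24) and MKI67 (−0.24) the lowest of their groups. The 3 CTD comparisons share libraries, and none of them is independent of the other two.

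The authors' fits of transcriptional bursting described the same cells another way. In a beta-Poisson model a gene's counts over cells are described by how often it fires, here the fitted parameter K in its own unit, and by how many transcripts each burst leaves, here the mean divided by K. K was lower in HaloTag than in Dendra2 for all 49 members in the fit over both tags, with a median difference of −0.242 on the log10 scale. Over all 36541 genes, most of them hardly detected, limma called 0 members and 0.0% of genes at an adjusted p under 0.05. A second fit, on the 4355 genes that averaged at least 0.5 UMIs in a cell, held 45 members. In it 15 of 45 members were called lower, against 2.57% of genes, and 39 had an unadjusted p under 0.05 on the lower side, against 9.58%. For 40 of the 45 the HaloTag libraries lay wholly below the Dendra2 libraries, against 11.8% of genes. The median difference over all 4355 genes was 0.00134. With each library centred on its median gene, 5 of the 45 members (PBK, SPC25, NUSAP1, BIRC5 and TMPO) were called lower, against 1.15% of genes, and 0 with any library left out.

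PBK, a mitotic kinase, had a K of 0.688, 0.485 and 0.507 in HaloTag libraries and 1.44, 1.57 and 1.29 in Dendra2 libraries (log10 −0.41, SE 0.063, limma adjusted p = 0.0104 in the 4355 genes). BIRC5 had a K of 0.934, 0.637 and 0.649 in HaloTag libraries and 1.69, 1.69 and 1.47 in Dendra2 libraries (log10 −0.35, SE 0.059, limma adjusted p = 0.0144). The HaloTag values of both lay below the lowest Dendra2 value. The other 13 called were NUSAP1, SPC25, TMPO, HMGB2, TACC3, CKS1B, ANLN, MKI67, TPX2, NCAPD2, CENPF, NUF2 and KIF11. Leaving out any library cut the 15 calls, with fewer residual degrees of freedom: 4 (BIRC5, NUSAP1, SPC25 and PBK) were made with HaloTag 70R left out, 2 (SPC25 and PBK) with Dendra2 70R, 1 (PBK) with HaloTag 52R, and 0 with HaloTag 25R, Dendra2 25R or Dendra2 52R. Of the 4355 genes 34, 20 and 18 were called lower without HaloTag 70R, Dendra2 70R and HaloTag 52R. The member median stayed between −0.298 and −0.215 with any library left out. CENPF and ANLN, whose fitted differences in level lay above 0, had a K of 0.597, 0.434 and 0.397 and of 0.664, 0.492 and 0.475 in HaloTag libraries, against 0.911, 0.984 and 0.839 and 1.11, 0.990 and 0.931 in Dendra2 libraries. CDK1 did not pass (0.473, 0.329 and 0.331 in HaloTag libraries, 0.773, 0.716 and 0.612 in Dendra2 libraries), though its libraries did not overlap. CKS2 overlapped, with 1.35, 0.879 and 0.706 in HaloTag libraries and 1.19, 1.24 and 1.18 in Dendra2 libraries.

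**Figure D5:**
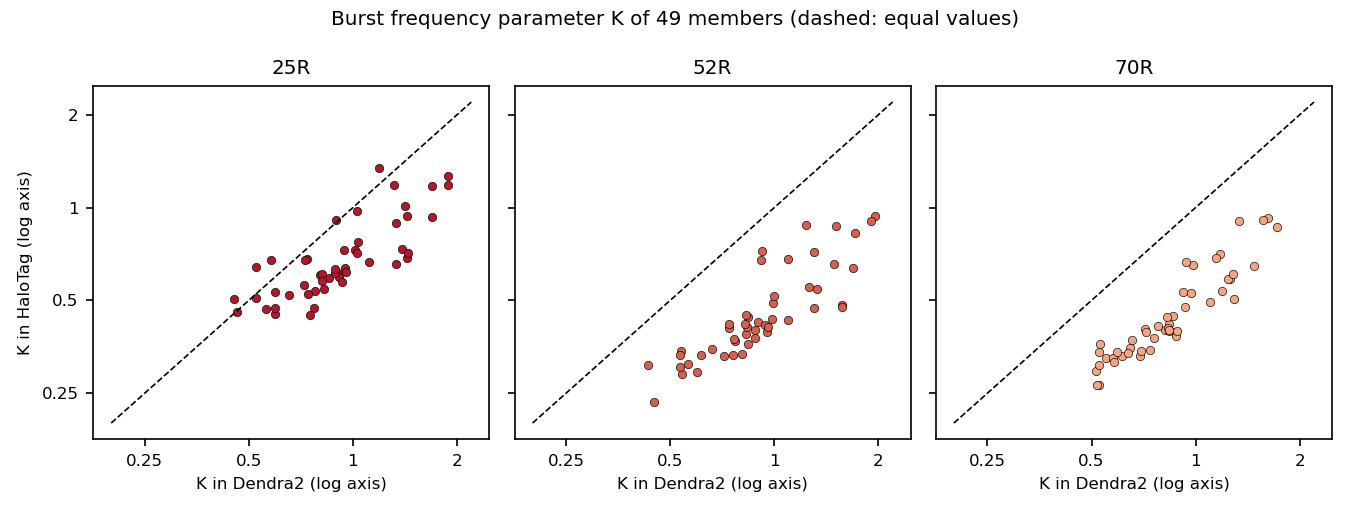
The fitted burst frequency parameter K of each of the 49 members in HaloTag (y axis) against Dendra2 (x axis), both on log axes, at 25R, 52R and 70R. The dashed line marks equal values, and each CTD length has its own colour. At 52R and 70R all 49 points lie below the line, and at 25R 44 of 49 do.

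At 25R K was lower in HaloTag than in Dendra2 for 44 of 49 members, with a median ratio of 0.708. At 52R and 70R it was lower for 49 of 49, with median ratios of 0.489 and 0.528. K was not scaled for depth, and HaloTag cells were shallower at 52R and 70R but not at 25R. At each CTD length the member-poor share was larger in HaloTag, where K was lower for most members. The part of that share in the result was not tested. Within HaloTag, K at 25R exceeded K at 52R for 49 of 49 members (median ratio 1.48), while within Dendra2 22 of 49 did (median ratio 0.991). K at 70R was below K at 25R for 49 of 49 members in HaloTag (median ratio 0.667) and for 40 of 49 in Dendra2 (0.916). Limma over all 36541 genes called 0 members and 0.0% of genes for K in each of the 3 CTD comparisons. At an unadjusted p under 0.05 there were 0 members in each, against 5.4% of genes between 25R and 52R, 4.96% between 70R and 52R and 5.46% between 70R and 25R. The difference between 25R and 52R was above 0 for 49 of 49 members (median log10 0.083), and that between 70R and 25R below 0 for 49 of 49 (median −0.111). In the 4355 genes, with each library centred on its median gene, 13 of 45 members were higher at 25R than at 52R at an unadjusted p under 0.05, against 5.3% of genes. By the same measure 6 of 45 were lower at 70R than at 25R, against 4.13%, and 0 members were called. Both counts moved up or down with the library left out, and the 4355 genes were not counted in those fits. The member median for 25R against 52R ran from 0.0917 (HaloTag 25R left out) to 0.160 (Dendra2 25R left out). For 70R against 25R it ran from −0.159 (Dendra2 25R left out) to −0.0838 (HaloTag 25R left out).

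Of 6 other lists, other mitosis and S phase genes had a median K difference close to the −0.245 of the 45 members, and 4 lists had medians nearer 0. In those 4355 genes, 23 of 48 other mitosis genes (median log10 −0.25) and 17 of 27 S phase genes (median −0.25) were called lower in HaloTag, against 2.57% of genes. The 8 measured subunits of the anaphase-promoting complex had 0 calls and a median of −0.036, with 0 at an unadjusted p under 0.05. The 10 measured Cdk1 regulators had 2 calls (median −0.071), the 6 transcription regulators 2 (median −0.15) and the 8 other G2/M genes 1 (median −0.13).

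Burst size, taken as the fitted mean divided by K and so not independent of K, was larger in HaloTag for most members. Over 36541 genes limma called 0 members and 0.0% of genes, and the difference was above 0 for 39 of 49 members (median log10 0.103, beside −0.083 over all genes). Among the 4355 genes 4 members were called higher, PBK (log10 0.27), HMMR (0.27), ANLN (0.26) and CENPF (0.24), against 0.528% of genes. Without either 70R library 3 of these calls (ANLN, HMMR and PBK) were made, and without any other library 0. Of the 4355 genes 19 were called higher without HaloTag 70R and 9 without Dendra2 70R. CENPF bursts came to 11.4, 20.2 and 20.3 UMIs in HaloTag libraries and 9.06, 9.47 and 10.5 UMIs in Dendra2 libraries. TOP2A bursts came to 12.4, 20.4 and 15.0 UMIs in HaloTag libraries and 8.48, 9.87 and 11.3 UMIs in Dendra2 libraries. Both genes had a larger burst size in each HaloTag library than in any Dendra2 library. With libraries centred on their median gene, 16 of 45 members were called higher, against 2.18% of the 4355 genes. Those 16 became 31 without either 25R library, 3 without either 70R library and 0 without either 52R library. How many of the 4355 genes were called in those fits was not counted, so these counts have no background.

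Burst size was also compared between CTD lengths. As the mean divided by K, it falls where K rises at an equal mean, so it is not a result separate from K. Its medians for 25R against 52R and for 70R against 25R lay on the other side of 0 from those of K. At 25R burst size was below that at 52R for 48 of 49 members (median log10 −0.141). Of these members 11 had an unadjusted p under 0.05 on the lower side, against 2.69% of 36541 genes. At 70R it was above that at 25R for 45 of 49 members (median 0.091), 6 of them at an unadjusted p under 0.05, against 2.33%. Between 70R and 52R 37 of 49 were below 0 (median −0.037), and AURKA (−0.20), NUSAP1 (−0.15) and DLGAP5 (−0.11) had an unadjusted p under 0.05, against 2.74%. Limma called 0 members and 0.0% of genes in each of the 3. Dropping the 70R library of HaloTag or of Dendra2 turned the 11 into 9, against 939 and 955 of the 36541 genes. Dropping a 25R or 52R library leaves 1 library at that length. The member median for 25R against 52R then ran from −0.195 (Dendra2 52R dropped) to −0.0755 (HaloTag 52R dropped). In the 4355 genes after centring, 26 of 45 members were lower at 25R than at 52R at an unadjusted p under 0.05, against 8.36%, and 20 were higher at 70R than at 25R, against 7.44%. None of these was called with all 6 libraries. Both counts moved with the library left out, and some members were then called. How many of the 4355 genes were called in those fits was not counted. The member median ran from −0.2465 (Dendra2 25R left out) to −0.0917 (HaloTag 25R left out) for 25R against 52R. For 70R against 25R it ran from 0.0635 (HaloTag 25R left out) to 0.2186 (Dendra2 25R left out). Each of these fits leaves 1 library at 25R.

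The spread of single members over cells was also taken at equal depth, for 46 members among 3042 genes. It was the squared coefficient of variation beyond counting noise in cells thinned to 5000 UMIs. This measure is not independent of K, which also describes how unevenly counts lie over the cells of these libraries. No member and 0.0% of genes passed the threshold of limma. The difference was above 0 (more spread in HaloTag) for 45 of 46 members, with a median of 0.256 on the log10 scale, beside 0.069 over all genes. At an unadjusted p under 0.05, 33 members were higher in HaloTag, against 8.05% of genes. For 36 the HaloTag libraries lay wholly above the Dendra2 libraries, against 14.8%. With 1 library left out, the 33 became 9 (HaloTag 52R left out), 14 (HaloTag 70R), 10 (Dendra2 52R) or 16 (Dendra2 70R). By the same measure 245 of the 3042 genes were higher with every library, and 136, 171, 145 and 172 in those fits. Without the 25R library of HaloTag or of Dendra2 the 33 became 34, against 228 and 229 genes.

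BIRC5 had an excess squared coefficient of variation of 0.532, 0.862 and 0.884 in HaloTag libraries and 0.217, 0.268 and 0.366 in Dendra2 libraries (log10 0.43, SE 0.076, limma adjusted p = 0.386). HMGB2 had 0.976, 0.815 and 0.764 in HaloTag libraries and 0.323, 0.358 and 0.388 in Dendra2 libraries. MKI67 had 1.16, 1.58 and 1.58 in HaloTag libraries and 0.614, 0.793 and 0.913 in Dendra2 libraries. These 3 genes were spread more unevenly in each HaloTag library than in any Dendra2 library. CKS2 was the less clear kind, with 0.560, 0.920 and 1.06 in HaloTag libraries and 0.539, 0.629 and 0.621 in Dendra2 libraries. G2E3, a ubiquitin ligase, was the member below 0 (log10 −0.021).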

How the data were processed

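The submitters' processing notes name bcl2fastq and the build GRCh38. Matrices of UMI counts were deposited by the authors from Cell Ranger 6.1.2, per the file headers. Kinetic tables were deposited by the authors and give a score per gene and library (a mean, and K of a beta-Poisson model named in the file headers). K comes from a tool whose version the sources do not state, and is not scaled for depth. Columns of per-sample values not used numbered 0.

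Barcodes under 500 genes or over 20% mitochondrial counts were dropped (52553686 to 58442223 UMIs per library left), tag sequences were left out, and no doublet caller was run. Counts were summed per library, filtered with filterByExpr, scaled by trimmed mean of M values and fitted with edgeR 4.0.16 quasi-likelihood models of tag plus CTD length (R 4.3.3), with Benjamini-Hochberg adjustment over all genes. DESeq2 1.42.0 was run beside it. Kinetic values and the squared coefficient of variation were tested on log10 with limma 3.58.1. Cells were never replicates: values per library were compared with two-sided exact permutation tests. Log2 levels of single libraries, and the differences between them, carried a prior count of 2, which the fitted differences did not. Cells with under 5000 UMIs (50, 61 and 217 of HaloTag and 101, 34 and 56 of Dendra2) were left out of thinning. Other tools were Python 3.11.15, numpy 2.4.6, pandas 2.3.3, scipy 1.17.1, statsmodels 0.14.6 and matplotlib 3.10.9. Coordinates are GENCODE v44, which may differ from the annotation the authors counted on. In it 10 members overlap a gene on their strand, 23 a gene on the opposite strand, and 18 have named pseudogenes, so some reads may be shared.

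The members and lists were chosen with earlier results of these data known. Named members were every called member, the extremes of each role group with a mean of at least 10 CPM in each comparison, and a fixed set of 20. Promoters shown were those of paralogous pairs and of members so named. Member-poor cells, the coefficients of variation, the level in other cells, the ratio of mitosis-high to other cells, and the kinetic fits that join a mean of at least 0.5 UMIs with centring were added after the cell distributions were seen. The count and limma tests were tested on simulated data with 200 changed genes.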

Additional observations from a re-analysis of the deposited data

Results flagged for a closer look

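The median member difference between 70R and 25R had opposite signs in the tags, at 0.25 on the log2 scale between the HaloTag libraries and −0.079 between the Dendra2 libraries. With 1 library per genotype the difference between the tags was not tested. HaloTag 25R had the lowest summed member level of the 6 libraries, 5579 CPM, against 6983 CPM in HaloTag 70R, and 6754 CPM in Dendra2 70R stood beside 6807 CPM in Dendra2 25R.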

How the results depend on the processing

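No paired analysis was possible by replicate number, because every library is replicate 1 of its genotype. CTD length pairs the tags and is a term of every edgeR and limma fit, but the permutation tests did not use it. Between tags, DESeq2 called 4 members and edgeR without a filter 2, against 0 with edgeR. The median for 70R against 25R turned to −0.011 in thinned cells. The share of mitosis-high cells turned to 1.37 percentage points higher in HaloTag at the 90th percentile. For K, 15 members were called in genes with at least 0.5 UMIs and 5 after centring (against 1.15% of genes, and 0 with any library left out), and 0 of all genes with at least 1 UMI in every library. For burst size the counts were 4 and 16 (against 0.528% and 2.18% of genes), and the centred median was 0.216. Values of single members that changed sign were small. Between tags NDC80 came to 0.067 with library totals, and TOP2A to −0.0044 without a filter and −0.00042 in thinned cells. For 25R against 52R CDCA8 came to 0.0069 in thinned cells and CDCA3 to −0.022 with library totals. For 70R against 25R CDCA8 came to −0.048 in thinned cells, and CDCA3 to 0.039 with library totals, 0.00087 with DESeq2 and 0.0044 without a filter. The causes were not tested. Of 335 values of single members under those settings 320 kept their direction and side of the threshold.

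Leaving out each library in turn, 0 members were called in level, and 0 in K, burst size or spread over all genes tested. Among genes with at least 0.5 UMIs some K and burst size calls were made. The causes of the lost K and burst size calls were not tested. The member median ran from −0.24 to −0.07 between tags, −0.22 to −0.0041 for 25R against 52R, −0.15 to 0.057 for 70R against 52R and −0.043 to 0.22 for 70R against 25R. Single members also crossed 0 when a library was left out. Between tags the ranges were −0.13 to 0.047 for NDC80, −0.087 to 0.37 for CENPF, −0.078 to 0.16 for TOP2A and −0.45 to 0.069 for MKI67. For 25R against 52R they were −0.45 to 0.040 for KIF20B, −0.093 to 0.16 for CDCA3, −0.82 to 0.055 for G2E3 and −0.41 to 0.62 for MKI67. For 70R against 52R they were −0.17 to 0.57 for NUF2, −0.0073 to 0.32 for ANLN, −0.72 to 0.17 for G2E3 and −0.57 to 0.60 for HMGB2. For 70R against 25R they were −0.091 to 0.65 for NUF2, −0.51 to 0.067 for SPC25, −0.13 to 0.74 for NUSAP1, −0.045 to 0.44 for KIF20B, −0.074 to 0.065 for CDCA3 and −0.72 to 0.31 for MKI67. The summed member level differed by −706 to −3.79 CPM, the mitosis-high share by −5.35 to 0.653 points, members per mitosis-high cell by 8.72 to 15.3 UMIs and per other cell by −7.44 to −5.45 UMIs. The member-poor share differed by 17.9 to 20.5 points, the coefficient of variation by 0.259 to 0.356 and the ratio of mitosis-high to other cells by 1.26 to 2.04, with an exact permutation p of 0.2, the smallest possible. The K median ran from −0.288 to −0.207, the size median from 0.0573 to 0.129 and the spread median from 0.238 to 0.298. With limits of 2 and 10 UMIs the member-poor share was 14.6% and 38.3% in HaloTag and 5.02% and 16.5% in Dendra2. Depth limits the test of low members such as CDC25C, at about 12.5 CPM.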
